A study of Mus musculus with 28 samples.

Results

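The comparison described here is that of total mRNA between MN1 cells transfected with human TDP-43 (hTDP-43) and MN1 cells transfected with GFP. Its members are 4 of the 28 libraries of the series, 2 per group, chosen by cell type, library type and transfected plasmid as the sample labels give them. MN1 is a clonal mouse line made by fusing spinal motor neurons with neuroblastoma cells, and these cultures were at passages 10 to 12. Cells were transfected transiently with a plasmid for GFP, for the coding sequence of wild-type human TDP-43 with a FLAG and a V5 tag, or for the same protein with the patient mutation A315T. All MN1 cultures were given cycloheximide at 100 µg/mL for 3 min before lysis, and every culture was split into a library of ribosome footprints and a library of poly(A)-selected, fragmented total mRNA. The wild-type protein and the GFP control are compared here, and the A315T cultures and the footprints enter only where they bear on that comparison.

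TDP-43, encoded by the gene Tardbp, is a nuclear RNA-binding protein that prefers UG-rich RNA, acts in splicing and mRNA stability, and is found in cytoplasmic aggregates in ALS, a disease of motor neurons, and in FTD, a dementia of the frontal and temporal lobes. Its level is held in check by binding to the 3′ end of its own mRNA, which lowers that mRNA when the protein is in excess. Total mRNA libraries measure the amount of each transcript, whatever its translation.

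The 4 libraries held between 1328528 and 2329298 reads assigned to exons, so that 3 reads, the smallest count taken as detection, stood for 1.29 to 2.26 CPM (counts per 1000000 reads). Values below are CPM on the TMM scale, which corrects library totals for composition. Of the 13 motor neuron markers listed, 6 were expressed highly enough to be tested. Among these were the intermediate filament gene Prph (800 to 1042 CPM), the transcription factor Isl1 (37.9 to 46.2 CPM) and the vesicular acetylcholine transporter Slc18a3 (18.9 to 32.9 CPM), whereas the motor neuron factor Mnx1 and the acetylcholine-synthesizing enzyme Chat stayed at 0 to 2.99 CPM. Neuroblastoma and sympathetic markers summed to between 3418 and 3582 CPM with GFP and between 3642 and 3747 CPM with hTDP-43. The sums of the groups overlapped for motor neuron markers (956 to 1173 CPM with GFP, 975.5 to 1235 CPM with hTDP-43). They also overlapped for general neuron markers (1412 to 1597 CPM with GFP, 1378 to 1614 CPM with hTDP-43). None of the 7 astrocyte, 7 oligodendrocyte or 9 fibroblast markers and 2 of 8 microglia markers were expressed highly enough to be tested.

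The cultures of one number carry the same culture date in the labels, and the libraries varied more by date than by transfected gene along the leading axis. The first principal component of the 2000 most variable genes, with 48.5% of the variance, separated the dates (scores of -26.9 with GFP and -11.5 with hTDP-43 on date 1, and 12.7 with GFP and 25.7 with hTDP-43 on date 2). The second component, with 26.4%, separated GFP (5.48 and 22.2) from hTDP-43 (-15.5 and -12.2). The median absolute log2 difference of a gene between the 2 GFP libraries was 0.25, against 0.16 between hTDP-43 and GFP on date 1 and 0.17 on date 2.

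Expression of hTDP-43 changed few mRNAs in the paired comparison, in which each hTDP-43 library is set against the GFP library of its date. Of 9954 genes tested, 47 passed the threshold of an adjusted p below 0.05 (0.472%), 9 of them higher with hTDP-43 (0.0904%) and 38 lower (0.382%). The strongest rise was that of Gm13886, a pseudogene of Tardbp, followed by that of reads assigned to Tardbp itself, which can include reads of the plasmid. The falls with the smallest p were those of Cbx8, a Polycomb subunit, Ttyh1, a membrane protein, Elovl4, a fatty acid elongase, and Csf2, the cytokine GM-CSF. Changes other than that of Gm13886 were modest: the rises had a median log2 fold change of 0.58 and the falls of -0.62, and 8 of the 9 rises and 30 of the 38 falls were under 2-fold. The median over all genes tested was 0.00.

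These calls rest on how the spread between replicates is estimated. The paired fit has 1 residual degree of freedom per gene. In it edgeR found no evidence of spread that differed between genes beyond the trend, so the error of each gene was that of the trend. An SE after ± from this fit therefore leaves out how far a gene's own differences on the 2 dates disagree. In the paired 6-library fit and in the unpaired fit, edgeR did find such spread. The prior degrees of freedom, higher where genes are more alike in spread, were 16.23 and 5.75 there and infinite in the main fit. Without the pairing by date, 1 gene passed (0.01%), which was Gm13886, and 67 genes had an unadjusted p below 0.05. In a paired fit that also held the A315T libraries, 3 of the 47 passed (Gm13886, Tardbp and Rassf3), and with DESeq2 only Gm13886 did, whereas 37 of the 47 passed with limma-voom. DESeq2 was run with no filter on low counts and adjusted over 21891 genes. With edgeR and no filter, also over 21891 genes, 36 of the 47 passed. The lists of fallen genes below are therefore those of the paired 4-library fit.

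**Figure D1:**
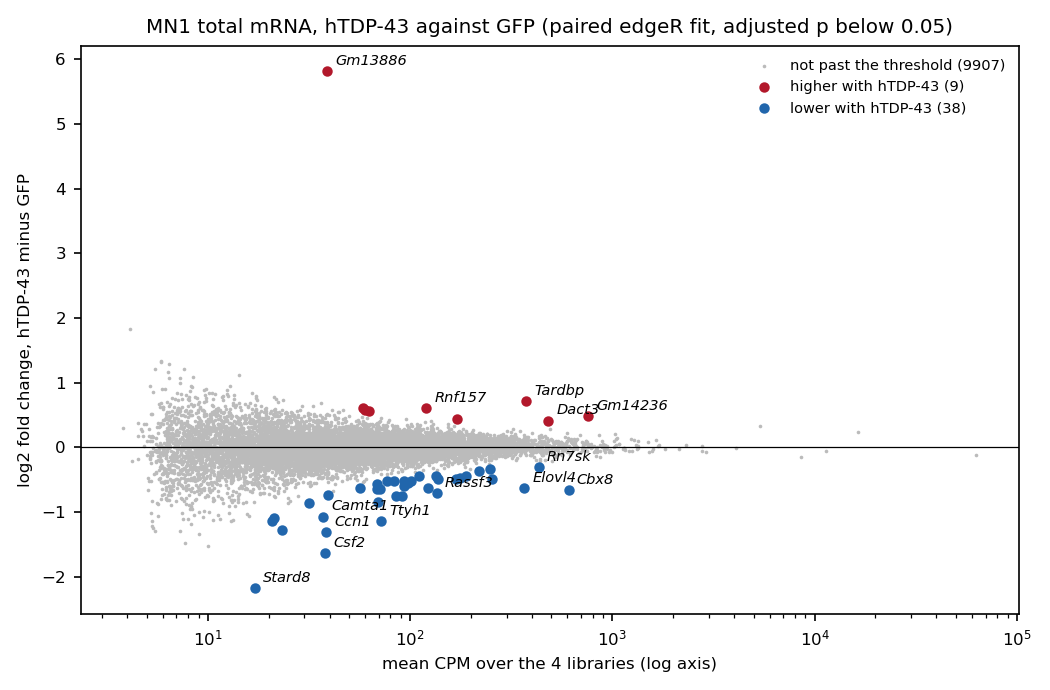
Log2 fold change of hTDP-43 minus GFP against the mean CPM over the 4 MN1 total mRNA libraries (log axis), 1 point per gene tested, with the 9 genes called higher in red and the 38 called lower in blue (paired edgeR fit). Gm13886 stands apart at 5.81, and the other called genes lie between 0.72 and -2.18.

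**Figure D2:**
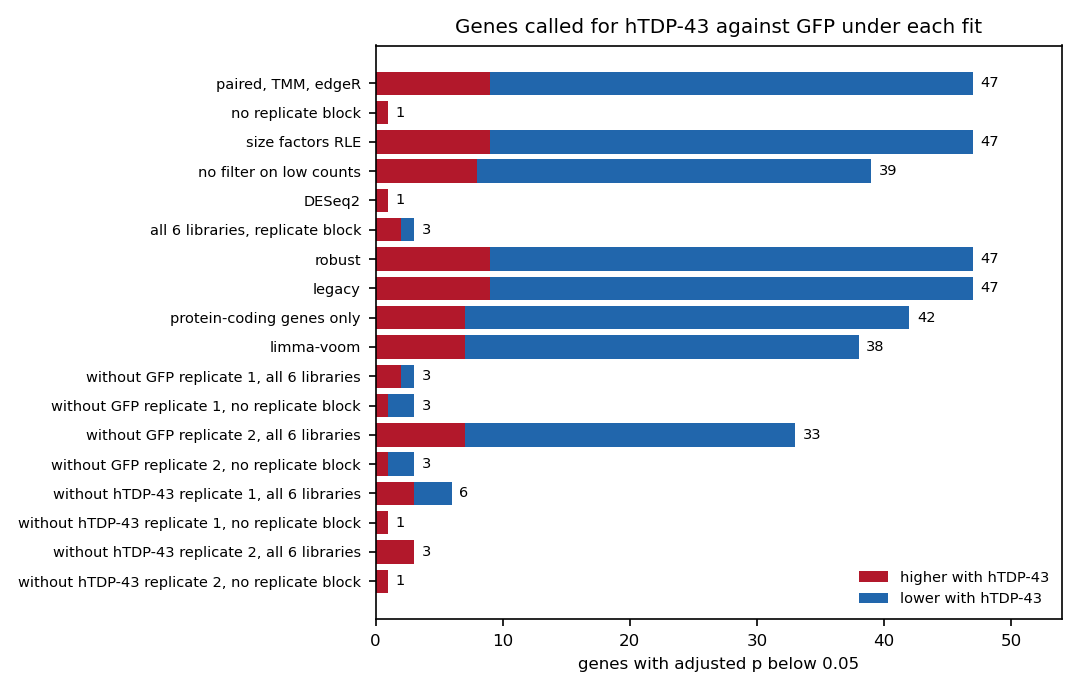
Number of genes with an adjusted p below 0.05 for hTDP-43 against GFP under each fit, stacked by direction. The count is 47 in the paired edgeR fit, 38 with limma-voom, 3 with all 6 MN1 total mRNA libraries and 1 without the replicate block or with DESeq2.

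Reads assigned to Tardbp and to its pseudogene rose on both dates. Tardbp (ENSMUSG00000041459, chr4:148612382-148627019, minus strand) had 304 CPM with GFP and 509 CPM with hTDP-43 on date 1, and 264 and 427 CPM on date 2. Both hTDP-43 libraries were above both GFP libraries, and the log2 fold change was 0.72 ± 0.08 (SE, n = 2 per group, edgeR adjusted p = 2.63e-15). With the 6 libraries the adjusted p was 9.43e-04, with DESeq2 it was 0.117, and without the pairing it was 1. As raw counts, 883 reads against 450 on date 1 gave a ratio of 1.67 (95% exact interval 1.49 to 1.87), and 573 against 618 on date 2 gave 1.63 (1.45 to 1.82) relative to the library totals. Such intervals cover counting error only.

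Gm13886 (ENSMUSG00000083856, chr2:104820179-104821361, plus strand) is a processed pseudogene, a copy of a spliced mRNA put back into the genome, and its 1183 bases align to the Tardbp mRNA at 93.9% identity across 96.1% of the coding sequence. It had 0 and 5 reads with GFP, and 132 and 104 reads with hTDP-43, that is 0 and 2.13 CPM against 76.1 and 77.6 CPM. The groups did not overlap. On date 1 it was 37.4-fold higher with hTDP-43 when 3 counts stood for the 0 of the GFP library. The lower limit of the 95% exact interval on that date was 30. On date 2 the ratio was 36.5 (95% exact interval 15.1 to 115). The fitted log2 fold change was 5.81 ± 0.33 (SE, edgeR adjusted p = 3.68e-63), a value that depends on the prior count since a GFP library was at 0. Gm13886 was the gene that passed in every fit tried, with adjusted p of at most 0.0387 wherever it was tested.

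For every 100 reads on Tardbp there were 0 and 0.809 reads on Gm13886 with GFP, and 14.9 and 18.2 with hTDP-43. Cultures with the A315T protein had 20.8 and 20.7. The pseudogene and the mouse mRNA differ in most stretches as long as a read. Of 961 windows of 30 aligned coding bases without a gap, 23.1% were identical, 72.6% differed at 1 to 3 bases and 4.3% at more than 3. The window that differs most shows how the copies can be told apart by a single read. It is given 5′ to 3′ from exon 4 of Tardbp, in its coding sequence (chr4:148620692-148620721, minus strand, GRCm38), and from Gm13886 (chr2:104820543-104820572, plus strand, GRCm38), with the bases that differ in capitals.
Tardbp: tcttaaaactGgTcactcGAaagggtttgG
Gm13886: tcttaaaactTgCcactcAGaagggtttgA
Counted from 1 at the 5′ end of the window, from Tardbp to Gm13886, the differences are G11T, T13C, G19A, A20G and G30A. The transfected sequence is the human coding sequence, which was not analysed here. The alignment allowed mismatches, so reads of the human transcript can be counted on the mouse gene or on the pseudogene, and transcripts of the plasmid and of the endogenous gene cannot be told apart in counts per gene. Whether the endogenous Tardbp mRNA rose or fell was not tested.

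The other 7 genes that rose did so by less than 2-fold. Gm14236, an antisense gene that overlaps Ripor3 on the other strand, had 582 and 848 CPM with GFP and hTDP-43 on date 1 and 689 and 929 CPM on date 2 (log2 fold change 0.48 ± 0.08, edgeR adjusted p = 1.12e-06). The counting did not use strand, so reads of Gm14236 and Ripor3 cannot be told apart. Dact3, an antagonist of Dishevelled in Wnt signalling, had 204 and 276 CPM on date 1 and 623 and 826 CPM on date 2 (0.42 ± 0.08, adjusted p = 1.81e-04 in the same fit). Rnf157, a ubiquitin ligase gene, had 66.9 and 113 CPM on date 1 and 123 and 177 CPM on date 2 (0.61 ± 0.11, adjusted p = 6.28e-05). For Dact3 and Rnf157 the difference between dates was larger than that between groups, and the hTDP-43 library of date 1 was below the GFP library of date 2. These 3 genes were also among those with very high values in footprints, with 13156 to 40571 CPM for Gm14236, 3651 to 28193 CPM for Dact3 and 1062 to 6502 CPM for Rnf157 in the 4 footprint libraries of GFP and hTDP-43. What their reads in total mRNA come from was not tested.

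Alyref, an adaptor for mRNA export, had 136 and 164 CPM with GFP and hTDP-43 on date 1 and 153 and 227 CPM on date 2 (0.44 ± 0.10, adjusted p = 0.00333). Pde4dip, which codes for the centrosome and Golgi protein myomegalin, had 50.7 and 70.4 CPM on date 1 and 45.7 and 73.1 CPM on date 2 (0.58 ± 0.15, adjusted p = 0.0382). Both hTDP-43 libraries were above both GFP libraries for these genes. Syn1, the synaptic vesicle protein synapsin I, had 48.7 and 50.2 CPM on date 1 and 45.2 and 91.0 CPM on date 2 (0.60 ± 0.16, adjusted p = 0.0307), so that nearly all of its rise came from date 2. Armc6, an armadillo repeat gene, had 42.6 and 80.2 CPM on date 1 and 57.6 and 70.1 CPM on date 2 (0.57 ± 0.15, adjusted p = 0.0364), mostly from date 1. The adjusted p of these 4 genes was over 0.9 in the 6-library fit.

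The fallen genes are described by role, for order alone, beginning with genes of signalling. Stard8, a GTPase-activating protein, had 48.0 and 8.65 CPM with GFP and hTDP-43 on date 1 and 8.11 and 3.73 CPM on date 2 (log2 fold change -2.18 ± 0.35, edgeR adjusted p = 3.84e-07). Csf2, the cytokine GM-CSF, had 96.7 and 24.8 CPM on date 1 and 18.4 and 11.9 CPM on date 2 (-1.64 ± 0.22, adjusted p = 5.28e-11). Ccn1, a matricellular protein induced early by growth factors, had 84.5 and 32.9 CPM on date 1 and 25.2 and 11.2 CPM on date 2 (-1.31 ± 0.21, adjusted p = 2.06e-07). In each of these 3 genes the GFP library of date 1 was the highest by far, and the GFP library of date 2 lay below the hTDP-43 library of date 1. In the 6-library and unpaired fits, from which a library can be left out, these falls passed neither with all libraries nor without that one. Without it the log2 fold change became 0.09 for Stard8 in the 6-library fit and 0.03 for Csf2 with no pairing.

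Adamts1 and Rassf3 fell more evenly. Adamts1, a secreted metalloprotease, had 105 and 54.8 CPM on date 1 and 73.4 and 44.0 CPM on date 2 (-0.85 ± 0.15, adjusted p = 7.81e-06). Rassf3, of the Ras association domain family, had 195 and 114 CPM on date 1 and 140.4 and 91.8 CPM on date 2 (-0.70 ± 0.11, adjusted p = 2.06e-07). For both genes the lower GFP library was above the higher hTDP-43 library. Rassf3 was the fallen gene that also passed in the 6-library fit (adjusted p = 0.0435), in which Adamts1 had an adjusted p of 0.0633.

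Of the genes for chromatin and transcription proteins, the one with the smallest p was Cbx8, a chromodomain subunit of the Polycomb repressive complex 1. Cbx8 had 921 and 598 CPM with GFP and hTDP-43 on date 1 and 564 and 347 CPM on date 2 (-0.66 ± 0.08, edgeR adjusted p = 6.01e-13, DESeq2 adjusted p = 0.0748). Stox2, a winged-helix protein, had 371 and 266 CPM on date 1 and 222 and 159 CPM on date 2 (-0.48 ± 0.09, adjusted p = 2.65e-05). Irf2bp1, a co-repressor that binds IRF2, had 240.1 and 166 CPM on date 1 and 155 and 116 CPM on date 2 (-0.48 ± 0.10, adjusted p = 6.27e-04). Zkscan5, a zinc finger protein, had 154 and 89.99 CPM on date 1 and 58.5 and 36.6 CPM on date 2 (-0.75 ± 0.14, adjusted p = 2.95e-05). Each of the 4 genes fell by a like factor on both dates but was higher on date 1 in both groups, so the values of the groups overlapped.

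Camta1, a calmodulin-binding transcription activator, was the called gene whose difference changed sign between dates. It had 18.3 and 19.04 CPM with GFP and hTDP-43 on date 1 and 83.2 and 27.6 CPM on date 2, so its fall (-1.07 ± 0.20, edgeR adjusted p = 5.87e-05) came from the GFP library of date 2 alone. Without that library and without the pairing, the log2 fold change was 0.34. The SE of 0.20 is that of the trend and leaves out this disagreement between dates, and in the unpaired fit the SE was 0.61. Other annotated genes lie within its span, and how reads on overlapping exons were assigned was not tested.

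The other leading falls were of genes with mixed roles. Elovl4, an elongase of very long chain fatty acids, had 602 and 338 CPM on date 1 and 293 and 229 CPM on date 2 (-0.63 ± 0.08, edgeR adjusted p = 3.47e-11). Ttyh1, a membrane protein of the tweety family, had 54.8 and 50.8 CPM on date 1 and 146 and 36.6 CPM on date 2 (-1.14 ± 0.15, adjusted p = 1.47e-11), nearly all of it from date 2. Slc16a11, of the monocarboxylate transporter family, had 48.69 and 14.999 CPM on date 1 and 17.1 and 11.9 CPM on date 2 (-1.28 ± 0.27, adjusted p = 0.00102). For Ttyh1 and Slc16a11 1 GFP library stood above the 3 other libraries.

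Ilvbl, an acetolactate synthase-like enzyme, had 145 and 83.6 CPM on date 1 and 85.4 and 52.96 CPM on date 2 (-0.75 ± 0.13, adjusted p = 6.79e-06). Kif21b, a neuronal kinesin, had 181 and 114 CPM on date 1 and 115 and 78.3 CPM on date 2 (-0.62 ± 0.12, adjusted p = 3.93e-05). In both genes the lower GFP library exceeded the higher hTDP-43 library by a small margin. Fam167a had 296 and 196 CPM on date 1 and 117 and 97.7 CPM on date 2 (-0.48 ± 0.10, adjusted p = 7.47e-04), and its groups overlapped.

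**Figure D3:**
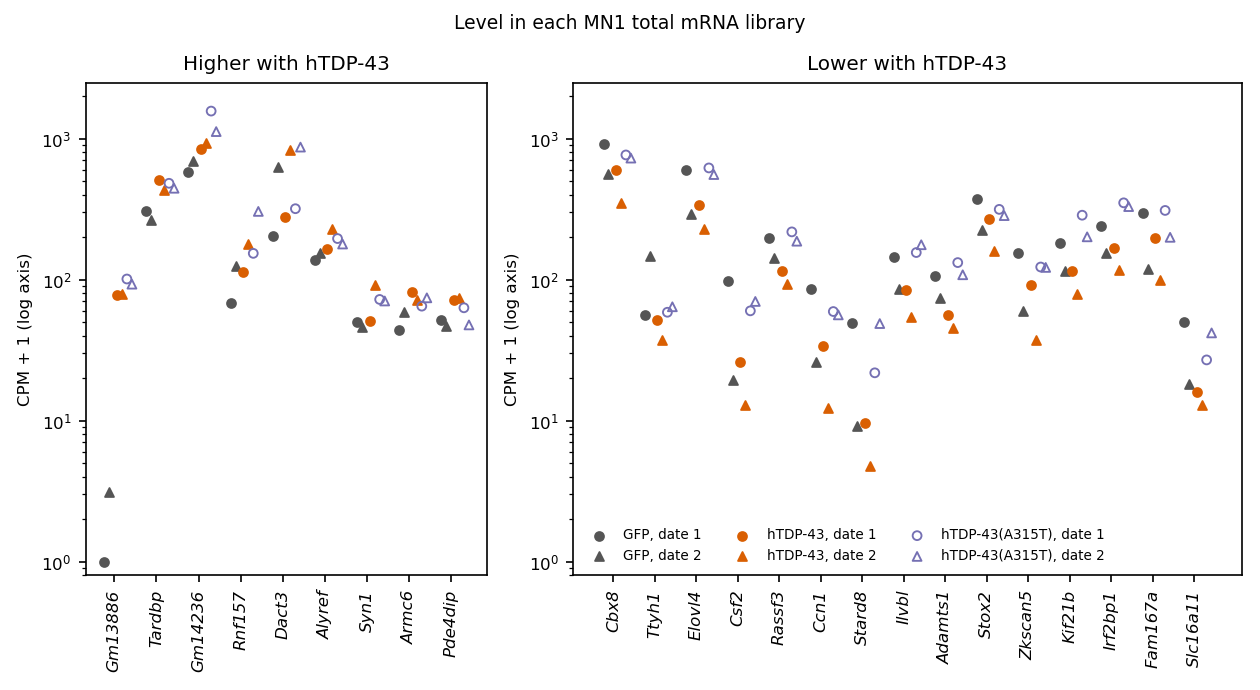
CPM + 1 (log axis) in each MN1 total mRNA library for the 9 genes called higher and the 15 leading genes called lower with hTDP-43, with circles for date 1 and triangles for date 2. Gm13886 goes from 0 and 2.13 CPM with GFP to 76.1 and 77.6 CPM with hTDP-43, whereas for Csf2 and Stard8 the GFP library of date 1 stands apart from the others.

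The other 22 genes that fell with the same sign on both dates had log2 fold changes from -1.14 to -0.30, with adjusted p from 0.00102 to 0.0381. They included the transcriptional regulators Cited2 and Rfxap, the ubiquitin pathway genes Cul9, Lrr1 and Brcc3, the dioxygenase Jmjd6, the RNA ligase Rtcb, and the cytoskeletal genes Map7 and Diaph3. Genes for the secretory pathway and for membrane proteins were Arfrp1, Gnptab, Dpy19l1, Stim2, Tspan33, Opn3, Gpr45, Xpnpep2 and the mitochondrial carrier Slc25a38. The remaining 3 were non-coding or unclassified: Rn7sk, the 7SK RNA that holds the elongation factor P-TEFb inactive (414 and 375 CPM on date 1, 543 and 399 CPM on date 2, -0.30 ± 0.08, edgeR adjusted p = 0.0364), the small RNA gene Gm24359, and Gm38198, which lies within Adgrb3. Since 7SK is not polyadenylated as a rule, its level in poly(A)-selected libraries also depends on the selection. By biotype, 7 of the 9 risen and 35 of the 38 fallen genes were protein-coding.

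Of the 47 genes, 46 had the same sign of the difference on both dates, which the paired test favours, against 51.8% of all genes tested. Their groups were separate in 23 of the 47 genes, 7 that rose and 16 that fell, and overlapped in the other 24. The groups were separate in 21.3% of all genes, and being called favours separation too. The fallen genes shared a pattern over the libraries: 35 of the 38 were highest in the GFP library of date 1. That library was the highest for 25.62% of all genes. Fallen genes are by selection likely to be highest in a GFP library, so a share above that of all genes is favoured. They were also higher on date 1 than on date 2 within the hTDP-43 group, in 35 of 38 genes against 50.62% of all genes, with a median log2 difference between dates of 0.54 with hTDP-43 and 0.72 with GFP. Among the 9 risen genes, 3 were higher on date 1 with GFP and 2 with hTDP-43. The part that the culture of date 1 played in the falls was not tested.

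**Figure D4:**
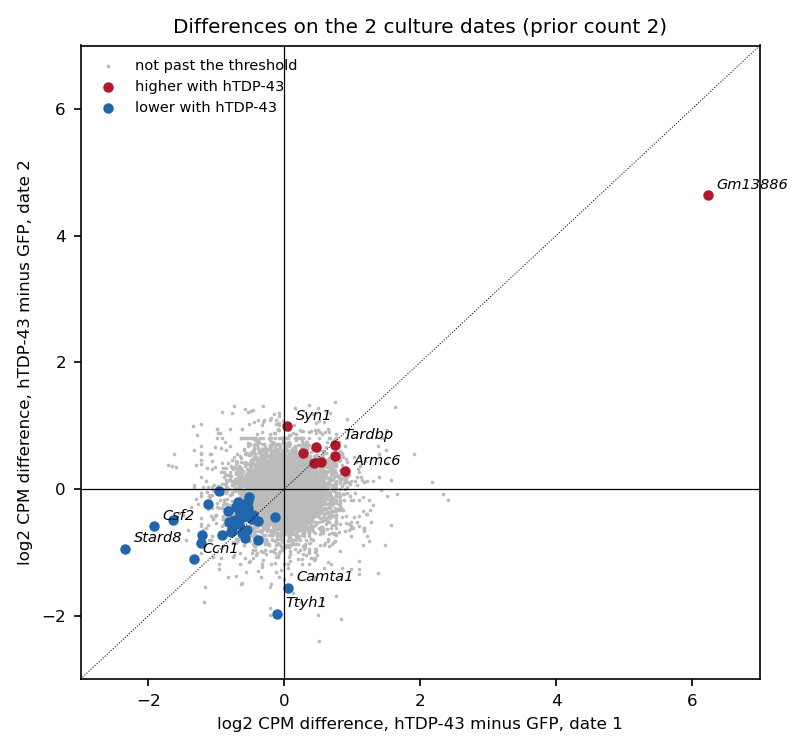
Log2 CPM difference of hTDP-43 minus GFP on date 1 (horizontal) and on date 2 (vertical), 1 point per gene, with called genes in colour and the dotted line where both dates are equal. Gm13886 lies at 6.24 and 4.64, Camta1 at 0.06 and -1.56, and Ttyh1 at -0.11 and -1.97. Stard8 and Csf2 fell mostly on date 1.

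Length, base composition and UG repeats were set beside those of all genes tested, with no test. Exons of the 35 fallen protein-coding genes had a median GC content of 51.15% and a median total length of 4320 bases, beside 50.11% and 4133 bases over the 9799 protein-coding genes tested. Since TDP-43 prefers UG repeats, 6 tandem copies of TG (TGTGTGTGTGTG) were sought on the sense strand. Exons of 2 of the 35 fallen genes held it (5.71%), as did those of 1 of the 7 risen genes (14.29%) and 11.71% of all protein-coding genes tested. Over whole genes, introns included, the repeat was in 20 of the 35 fallen genes (57.14%), in 6 of the 7 risen genes (85.71%) and in 70.92% of all. On the other strand it was in 21 of the 35 (60.0%) and in 61.05% of all. The exonic repeats of Rnf157, in its 3′ UTR (chr11:116336515-116336544, minus strand, GRCm38), and of Tspan33, in an exon of a transcript with a retained intron (chr6:29709589-29709618, plus strand, GRCm38), are given with the longest uninterrupted run in capitals. The exonic repeat of Diaph3, the other fallen gene, is a longer run of 31 copies and is not printed.
Rnf157: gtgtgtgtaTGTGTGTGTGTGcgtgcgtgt
Tspan33: gtctcTGTGTGTGTGTGTGTGTGTGtacgt
A match is a description of the sequence, and whether TDP-43 binds there was not measured.

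The partners of TDP-43 and other proteins of its class are given first among the gene lists. Since 0.472% of all genes tested were called, a list with none called is the usual case and no result about that list. Of 21 genes in the list of TDP-43 and its partners, 20 did not pass, with a median log2 fold change over the list of -0.05. The exception was the rise in reads assigned to Tardbp, which can include reads of the plasmid. Hnrnpa1, Hnrnpa2b1 and Hnrnpl, genes for nuclear ribonucleoproteins, differed by -0.07 ± 0.08, -0.12 ± 0.08 and 0.09 ± 0.08 on the log2 scale. Of 30 tested genes of ALS and FTD, Tardbp was again the one called, with the same limit, and Sqstm1 (-0.08 ± 0.08) and Pfn1 (0.05 ± 0.08) did not pass. Of 35 splicing factors none passed, with 3 at an unadjusted p below 0.05 and a median of -0.06. The highest expressed, Ptbp1, Srsf6 and Srsf1, differed by 0.13 ± 0.08, -0.01 ± 0.08 and -0.03 ± 0.08.

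Of 24 tested genes described as TDP-43 target mRNAs, Camta1 was called lower and 23 did not pass, with a median log2 fold change of -0.01. Eif4h, Map1b and Rac1, the members with the most reads, differed by 0.04 ± 0.08, -0.02 ± 0.08 and -0.12 ± 0.08. The difference of Camta1 changed sign between the dates, as given above, and its adjusted p in the 6-library fit was 0.998. The study chose Camta1 for follow-up from libraries of this series, so its call in this list is not independent evidence of a fall in target mRNAs. Of 14 tested genes that the study named in its tables of hits, 6 fell (Stard8, Csf2, Ccn1, Ttyh1, Camta1 and Lrr1) and 8 did not pass, with a median of -0.33. These genes were picked from results of libraries that include these, so the count is not independent evidence of a fall.

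Stress and growth programmes held at most 1 called gene each. None of the 30 tested genes of the integrated stress response passed, with Aars, Slc7a5 and Atf4 at -0.05 ± 0.08, 0.02 ± 0.08 and -0.02 ± 0.08 and a median of -0.06, nor did any of the 20 genes of the unfolded protein response, with Hspa5, the chaperone BiP, at -0.04 ± 0.08 and a median of 0.02. The heat shock list of 18 genes (median -0.03), the p53 targets (17, median 0.03), the interferon and innate list (21, median 0.05) and the autophagy and lysosome list (34, median -0.01) had no member past the threshold. In the interferon list Oasl2 had the highest log2 fold change, 0.84 ± 0.30 (edgeR adjusted p = 0.442), with 6.76 and 12.1 CPM on date 1 and 17.1 and 30.6 CPM on date 2. Of 24 immediate-early genes, Ccn1 fell and 23 did not pass, with a range from -1.31 to 0.37. Of 14 secreted growth factors and their receptors, Csf2 fell and Ret, the GDNF receptor, stood at 0.04 ± 0.08, with a median of 0.00.

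The large housekeeping sets lay close to 0. None of 66 cytosolic ribosomal protein genes passed (median -0.03, range -0.25 to 0.29), nor of 35 cell cycle genes (median -0.04), 30 genes of cholesterol and lipid synthesis (median 0.03), 29 tubulins and neurofilaments (median -0.02) or 9 mitochondrially encoded genes (median 0.08). The respiratory chain subunit mt-Co1 differed by 0.08 ± 0.09, Tubb5 by -0.03 ± 0.09 and the sterol regulator Insig1 by 0.18 ± 0.08 (edgeR adjusted p = 0.627). Of 14 tested small RNA genes, Rn7sk and Gm24359 fell, with a median of 0.08, where 0.382% of all genes tested fell. Among cell type markers, none of the 6 motor neuron (median 0.05), 13 general neuron (-0.07), 11 neuroblastoma and sympathetic (0.14) and 2 microglia markers tested passed. In bulk cultures, fewer cells of a kind and less RNA per cell cannot be told apart. In all, 16 of the 23 lists with a tested member held none past the threshold, beside 0.472% of all genes tested that passed it.

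**Figure D5:**
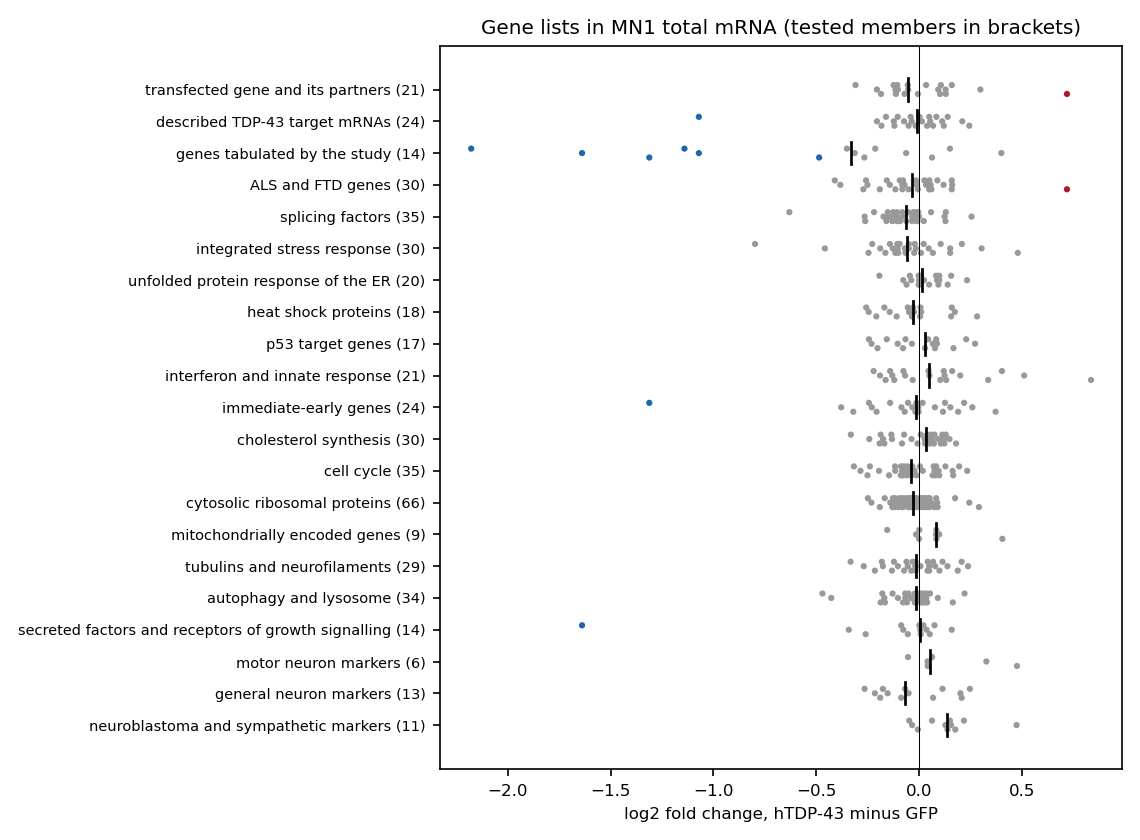
Log2 fold change of hTDP-43 minus GFP for the tested members of each gene list with at least 3 tested (grey not past the threshold, red higher, blue lower), with the list's median as a black bar. Medians lie close to 0 except that of the genes tabulated by the study (-0.33), which were chosen on libraries of this series.

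Footprint libraries of the same replicate numbers gave a second readout of these genes, at 332370 to 940822 reads. Of 8334 genes tested in footprints, 13 differed between hTDP-43 and GFP (0.156%) in the paired fit, and of the 47 genes called in total mRNA these included Gm13886 and Jmjd6. Gm13886 had 3.17 and 37.1 CPM with GFP and hTDP-43 on date 1 and 3.40 and 91.0 CPM on date 2 in footprints (log2 fold change 4.17 ± 0.50, edgeR adjusted p = 2.11e-09). Jmjd6, a dioxygenase, had 239 and 144 CPM on date 1 and 136 and 88.0 CPM on date 2 (-0.70 ± 0.16, adjusted p = 0.0205), beside 331 and 231 CPM, and 226 and 206 CPM, in total mRNA. Tardbp had 323 and 425 CPM on date 1 and 303 and 473 CPM on date 2 (0.51 ± 0.13, adjusted p = 0.128).

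Of the 38 fallen genes, 30 had enough footprints to be tested, and 19 of these were lower and 11 higher with hTDP-43, with a median log2 fold change of -0.16 beside -0.56 for the same genes in total mRNA. Of all genes tested in both, 49.58% were lower in footprints. Of the 9 risen genes, 7 were higher and 2 lower, with a median of 0.17. Whether the response differed between footprints and total mRNA was tested as an interaction with the culture as a block. None of 9887 genes passed (0%) in edgeR, with 179 at an unadjusted p below 0.05, and none passed in DESeq2, with 8 at an unadjusted p below 0.05. The median standard error of that difference over the fallen genes was 0.43 on the log2 scale, so a difference of that size was not detectable with these libraries.

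Total mRNA with the A315T protein was set against that with wild-type hTDP-43 directly, in a paired fit of the 6 MN1 total mRNA libraries. Of 10277 genes tested 74 passed (0.72%), 46 higher and 28 lower with A315T. The comparison shares the hTDP-43 libraries with that against GFP, so the values are given side by side. Genes called lower in those libraries are favoured to lie above them with A315T, so such differences are not independent evidence. Elovl4 had 618 and 555 CPM with A315T on dates 1 and 2 (1.07 ± 0.14 on the log2 scale above hTDP-43, edgeR adjusted p = 7.06e-04), Cbx8 had 765 and 726 CPM (0.69 ± 0.13, adjusted p = 0.00977), and Kif21b had 285 and 200 CPM (1.34 ± 0.11, adjusted p = 2.69e-06). Each was above the GFP library of the same date, except Cbx8 on date 1. Rassf3 had 217 and 186 CPM (0.97 ± 0.11, adjusted p = 1.52e-04) and Adamts1 131 and 107 CPM (1.27 ± 0.14, adjusted p = 9.2e-05), also above the GFP library of the same date.

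The 3 genes whose GFP library of date 1 stood apart were below that library with A315T and above the other GFP library. Csf2 had 59.0 and 69.0 CPM (1.801 ± 0.42 above hTDP-43, edgeR adjusted p = 0.0535), Ccn1 58.3 and 55.2 CPM (1.35 ± 0.31, adjusted p = 0.0501) and Stard8 20.8 and 47.7 CPM (2.34 ± 0.66, adjusted p = 0.114), none past the threshold. Of the genes that rose with hTDP-43, Tardbp had 481 and 443 CPM with A315T (-0.02 ± 0.09, adjusted p = 0.957) and Gm13886 99.9 and 91.8 CPM (0.33 ± 0.16, adjusted p = 0.404). An interval of 2 standard errors on either side of the difference ran from -0.19 to 0.15 for Tardbp and from 0.01 to 0.64 for Gm13886. Gm14236 was higher still with A315T, at 1566 and 1120 CPM (0.60 ± 0.12, adjusted p = 0.0252), and so was Rnf157, at 152 and 303 CPM (0.62 ± 0.11, adjusted p = 0.00845). Without the replicate block no gene passed between A315T and hTDP-43, with 351 at an unadjusted p below 0.05. DESeq2 called 12 of the 4036 genes for which it gave an adjusted p.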

How the data were processed

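Counts of reads per gene were taken as the authors deposited them for the 12 MN1 libraries. Per the labels and the methods of the study, the authors clipped adapters with cutadapt 1.8.1 and kept trimmed reads, removed reads that Bowtie2 aligned to non-coding RNA, aligned the rest to GRCm38 with TopHat2, allowing more mismatches in longer reads, kept unique alignments and counted them on exons of Ensembl genes with featureCounts 1.4.4. The file headers show no strand option, so reads of overlapping genes cannot be assigned by strand. The deposited counts are not normalized. Symbols and biotypes came from the gene name table and GENCODE M21, coordinates from the files, and sequences from the RefSeq copy of GRCm38 and GENCODE transcripts. No promoter or protein sequence was used, and the 16 neuron libraries were not used here.

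Genes were kept by filterByExpr (minimum count 10, minimum total 15), scaled by TMM and tested with edgeR 4.0.16 in R 4.3.3 by the quasi-likelihood test, with Benjamini-Hochberg adjustment and a threshold of 0.05. The replicate number was a block, since libraries of a number share a culture date in the titles, except for the year of 1 GFP footprint library. The deviations of same-numbered GFP and hTDP-43 total mRNA libraries from their group means correlated at 0.55 over 9954 genes. With 2 libraries per group the opposite pairing is then -0.55 by construction. The study used DESeq and states no pairing, so the unpaired fit is printed beside the paired one. The comparison of hTDP-43 with GFP in footprints also used the replicate number as a block. The interaction of footprints with total mRNA used the culture as a block. Nothing in the labels says whether cultures were separate passages. P-values of the main fit rest on the trend of spread over all genes in these samples, not on each gene's own spread. Standard errors are the absolute log2 fold change over the square root of F. Log2 CPM had a prior count of 2. The human insert sequence was not used here. Alignments used blastn 2.17.0. DESeq2 1.42.0, limma-voom (limma 3.58.1), other size factors, filters, library sets and left-out libraries were tried as alternatives. The tests were also run on simulated counts with known changes, in which all genes had the same spread beyond counting error. Such counts cannot show whether the paired fit calls too many genes where the spread differs between genes.

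The comparison, its gene lists and the roles under which genes are grouped were chosen with earlier results of these data known. Values are given in every library for at most 15 genes per direction, those with the smallest paired p and the same sign on both dates. The other called genes are named, except an item that is not reported here, and from each list the called members or up to 3 with the most reads. Insig1, Oasl2 and the cell type markers named by level were added after their values were seen.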

Additional observations from a re-analysis of the deposited data

How the results depend on the processing

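For hTDP-43 against GFP, the count of 47 called genes stayed within 1.5 times with RLE size factors, robust or legacy estimation, no filter on low counts, protein-coding genes only, and limma-voom (38 to 47). Robust and legacy estimation returned the same 47 genes and the same smallest edgeR adjusted p as the main fit (3.68e-63), so they add no separate check. The count was 1 with no replicate block, 1 with DESeq2 and 3 with all 6 MN1 total mRNA libraries. Leaving out 1 library gave 3 to 33 genes in the 6-library fit (3 without GFP replicate 1, 33 without GFP replicate 2, 6 without hTDP-43 replicate 1, 3 without hTDP-43 replicate 2) and 1 to 3 with no replicate block, where the lone library of a group is assumed to vary like the others. A paired fit of 3 of the 4 libraries has no residual degrees of freedom. Of the 47 genes, 34 kept their direction under all 17 alternatives in which they were tested and 13 reversed at least once, 12 of them without GFP replicate 1.

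Without GFP replicate 1, the log2 fold change became 0.009 for Opn3 and 0.092 for Stard8 in the 6-library fit. Without it and without the block it became 0.32 for Gpr45, 0.15 for Brcc3, 0.005 for Rfxap, 0.13 for Zkscan5, -0.18 for Dact3, 0.34 for Fam167a, 0.084 for Diaph3, 0.031 for Csf2, 0.021 for Gm24359 and 0.027 for Lrr1. Camta1 was at 0.34 without GFP replicate 2 and no block, and at 0.21 without hTDP-43 replicate 2 in the 6-library fit. Without hTDP-43 replicate 2 and no block, Gpr45 was at 0.011 and Dact3 at -0.59. With no block, leaving out a library leaves its group with a single date. A reversal in such a fit cannot be told apart from a difference between the dates. Except for Camta1, the genes named in this paragraph had the same sign of the difference on both dates. Beyond this and the fewer samples, the cause was not tested.

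The count of genes whose footprint and total mRNA responses differ was 0 with no replicate block, RLE or DESeq2, 3 with no filter, and 0 to 14 when a culture was left out (6 without GFP replicate 1, 6 without GFP replicate 2, 0 without hTDP-43 replicate 1, 14 without hTDP-43 replicate 2). For A315T against hTDP-43, the count of 74 was 0 with no replicate block, 246 with no filter, 12 with DESeq2, and 60 to 578 when a library was left out (578 without A315T replicate 2, 217 without A315T replicate 1, 209 and 210 without GFP replicates 1 and 2, 206 without hTDP-43 replicate 2, 60 without hTDP-43 replicate 1). The cause was not tested. At 332370 reads, the shallowest footprint library, that of hTDP-43 on date 2, limits what footprints can show, since 3 counts stand for 9.03 CPM there.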
